A study of Mus musculus with 6 samples.

Results

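The genes described here encode the MHC class II presentation machinery of the mouse, and were taken by gene symbol from a table of 55291 gene symbols; all 10 listed symbols were found. They are the classical chains H2-Aa, H2-Ab1 and H2-Eb1, the invariant chain Cd74, the peptide editor H2-DM (H2-DMa, H2-DMb1 and H2-DMb2), its inhibitor H2-O (H2-Oa and H2-Ob), and the transactivator Ciita. Polyadenylated RNA was sequenced from tumour-associated macrophages of mouse liver tumours (hepatocellular carcinoma), in 3 TREM2+ libraries, against 3 TREM2- libraries. TREM2 is a lipid-sensing receptor of macrophages, and the design sets the cells carrying it against those without it. The sources used here do not give the mouse strain, age or sex, the tumour model, the sorting gate or whether a library pools animals. The labels name the tissue but no separate donors, so a p-value here describes the spread among these libraries, which may be technical.

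MHC class II molecules carry peptides of engulfed material to the cell surface for CD4+ T cells. An alpha and a beta chain assemble on the invariant chain, which fills the groove and leads the complex to late endosomes. There proteases cut the invariant chain down to a short remnant, and H2-DM exchanges that remnant for antigenic peptide. H2-O, which is best known from B cells, binds H2-DM and holds it back. Transcription of these genes depends on CIITA, which binds no DNA itself and docks on factors at the X and Y boxes of their promoters. Interferon-gamma is the main inducer of CIITA in macrophages. In humans H2-A and H2-E correspond to HLA-DQ and HLA-DR, and mice carry a pair of genes for the H2-DM beta chain where humans have HLA-DMB alone.

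The promoters of the members are where their shared control is known to lie, so the stretch around the Y box is shown for 6 of them. Of the 10 members, 7 matched an entry of the RefSeq promoter table of GRCm38.p6 (all but H2-Ab1, Cd74 and Ciita). Each line runs 5′ to 3′ on the strand of the gene, from 50 bases before the Y-box letters to 20 bases after them. Capitals mark GATTGG (Y-box letters) and, where they start 20 to 40 bases before it, GNAAC (X-box letters). The letters were chosen with these promoters in view, and a match is a description of the sequence only.
H2-Aa: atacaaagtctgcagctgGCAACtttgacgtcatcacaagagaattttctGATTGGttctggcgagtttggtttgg
H2-Eb1: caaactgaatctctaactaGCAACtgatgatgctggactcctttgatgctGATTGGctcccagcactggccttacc
H2-DMb1: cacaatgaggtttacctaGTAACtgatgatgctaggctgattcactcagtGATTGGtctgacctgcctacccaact
H2-DMb2: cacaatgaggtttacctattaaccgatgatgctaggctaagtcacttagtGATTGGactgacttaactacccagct
H2-Oa: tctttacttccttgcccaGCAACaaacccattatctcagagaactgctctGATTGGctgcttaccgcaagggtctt
H2-Ob: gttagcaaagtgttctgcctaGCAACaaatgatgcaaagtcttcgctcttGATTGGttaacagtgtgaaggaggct

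The H2-Aa stretch lies at chr17:34287847-34287922 on the minus strand. The others are on the plus strand, at chr17:34305757-34305832 for H2-Eb1, chr17:34153079-34153154 for H2-DMb1, chr17:34145108-34145183 for H2-DMb2, chr17:34092285-34092360 for H2-Oa and chr17:34238797-34238872 for H2-Ob. GATTGG began at position -44 from the transcription start in H2-Oa, -49 in H2-Aa, -58 in H2-Ob, -60 in H2-Eb1, -62 in H2-DMb1 and -91 in H2-DMb2. GNAAC began 32 bases before it in H2-Aa, H2-DMb1 and H2-Oa, 31 in H2-Eb1 and 29 in H2-Ob. The pair of letters was thus present on the gene's strand in 5 of the 7 matched members, among them both H2-O genes and 2 classical chains. H2-DMb2 had GATTGG with no GNAAC at that distance, and neither window of H2-DMa held the pair. Of 32817 windows of the same length from all genes, 16.1% held GATTGG on either strand, 84.9% GNAAC and 1.20% the pair.

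Values are given as TPM, the deposited length-scaled signal rescaled here so that each library sums to 1000000, so levels of different genes can be compared per length. Depth was 11493461 to 19929829 recovered reads per library. Trem2 stood at 39.6, 40.8 and 30.7 TPM in TREM2+ replicates 1, 2 and 3 and at 16.9, 20.5 and 21.1 TPM in TREM2- replicates 1, 2 and 3 (adjusted p = 0.0855 in limma), so its transcript was also present in every TREM2- library. A Gm10800 repeat family held 0.704%, 5.05% and 17.5% of TPM in TREM2+ replicates 1, 2 and 3. Its share was 0.427%, 12.9% and 24.6% in TREM2- replicates 1, 2 and 3. In both groups this share rose and depth fell with the replicate number. All values below come in the order of replicates 1, 2 and 3.

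None of the 10 members passed the test between the groups, and their levels did not all lie the same way. The classical chains, the invariant chain, H2-DMa and H2-DMb1 lay higher in every TREM2+ library than in any TREM2- library, by 1.37-fold to 2.68-fold on the log2(TPM + 1) scale. H2-DMb2 and H2-Oa lay lower in every TREM2+ library. H2-Ob and Ciita overlapped between the groups. In a library of many cells, a smaller share of cells with a transcript and less of it per cell cannot be told apart.

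**Figure D1:**
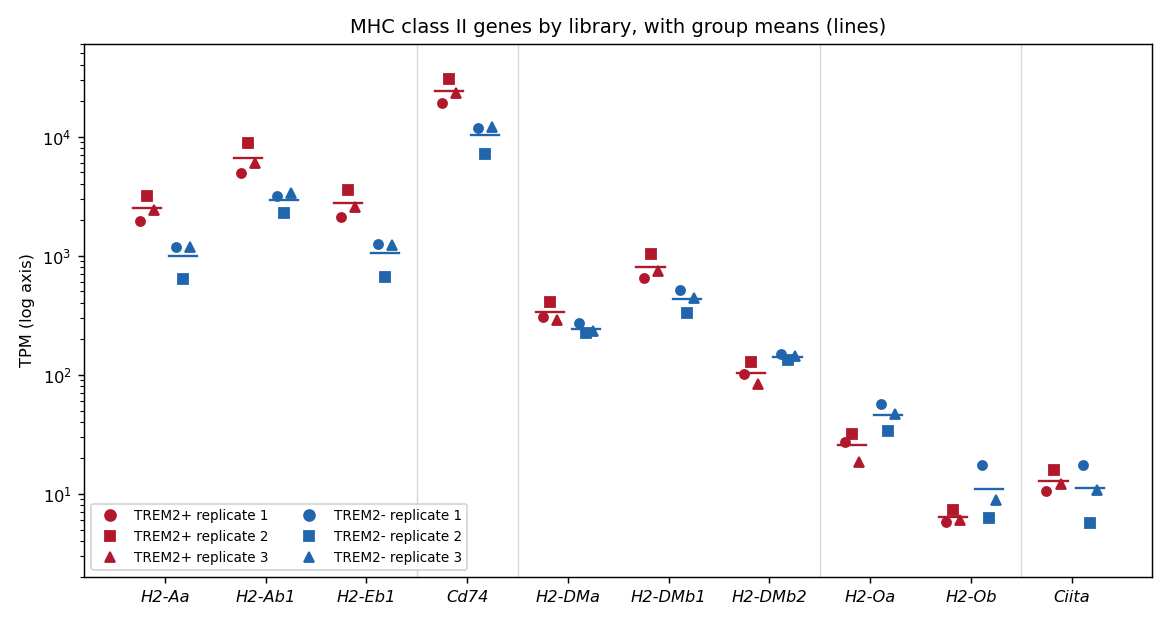
TPM of each gene (log axis) in the TREM2+ libraries (red, left) and TREM2- libraries (blue, right), with circles, squares and triangles for replicates 1, 2 and 3 and lines at the group means. The 3 classical chains and Cd74 do not overlap between the groups, H2-DMb2 and H2-Oa are lower in all 3 TREM2+ libraries, and H2-Ob and Ciita overlap.

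The test was limma on log2(TPM + 1) over the 13788 genes with at least 1 TPM in at least 3 libraries, with Benjamini-Hochberg adjusted p-values and a threshold of 0.05. All 10 members were tested and 0 passed; over all genes tested, 2.05% passed as higher and 0.37% as lower, 2.42% in all. At an adjusted p under 0.1, 4 members were higher (H2-Aa, H2-Ab1, H2-Eb1 and Cd74) and 0 lower, where 3.08% of all genes were higher and 0.645% lower. By unadjusted p-values under 0.05, 5 members were higher (H2-Aa, H2-Ab1, H2-Eb1, Cd74 and H2-DMb1) and 1 was lower (H2-Oa), where 7.45% of all genes were higher and 5.34% lower. The groups did not overlap for 6 members on the higher side and for 2 on the lower side, where 9.07% and 7.62% of all genes did not overlap. The median log2 fold change was 0.68 over the 10 members and -0.09 over all genes tested. Calls over all genes depended on single libraries: 282 genes passed as higher, but 138 when TREM2+ replicate 1 was left out, 167 without its replicate 3 and 109 without TREM2- replicate 3. Genes passing as lower numbered 51, but leaving out TREM2+ replicate 1 gave 20 and replicate 3 gave 30, and leaving out TREM2- replicates 1, 2 and 3 in turn gave 16, 94 and 12. The split of higher and lower calls was 284 and 101 without the repeat family and 206 and 92 on the deposited values without rescaling.

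H2-Aa, the alpha chain of H2-A (ENSMUSG00000036594.15, chromosome 17, 34282744 to 34287823, minus strand, mm10), had 1955, 3189 and 2427 TPM in the TREM2+ libraries, against 1193, 635 and 1171 TPM in the TREM2- libraries. The lowest TREM2+ library was above the highest TREM2- library. The log2 fold change was 1.36 ± 0.32 (SE of the fit, 3 against 3 libraries), with adjusted p = 0.0663 in limma. H2-Ab1, the beta chain that pairs with it (ENSMUSG00000073421.6, chromosome 17, 34257689 to 34269419), had 4943, 8794 and 6011 TPM in the TREM2+ libraries, against 3149, 2276 and 3378 TPM in the TREM2- libraries. It was the most abundant of the 3 classical chains in every library, and its log2 fold change was 1.14 ± 0.29 with adjusted p = 0.0997 in limma.

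H2-Eb1, the beta chain of H2-E (ENSMUSG00000060586.11, chromosome 17, 34305867 to 34316674), had 2118, 3591 and 2582 TPM in the TREM2+ libraries, against 1253, 661 and 1234 TPM in the TREM2- libraries. Its level tracked that of H2-Aa closely, and its log2 fold change of 1.42 ± 0.32 was the largest among the members (adjusted p = 0.0638 in limma). The alpha chain of H2-E was close to 0: H2-Ea had 0.125, 0.271 and 0.301 TPM in the TREM2+ libraries, against 0, 0.259 and 0.30 TPM in the TREM2- libraries. Mice of the b haplotype, such as C57BL/6, are known to lack H2-Ea expression through a promoter deletion. H2-Eb2, a further class II beta gene, had 8, 14 and 7 recovered reads in the TREM2+ libraries, against 31, 1 and 5 in the TREM2- libraries, too few to be tested.

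Cd74, the invariant chain (ENSMUSG00000024610.15, chromosome 18, 60803848 to 60812652), had 19241, 30535 and 23226 TPM in the TREM2+ libraries, against 11876, 7195 and 12001 TPM in the TREM2- libraries. By TPM it held places 3 to 7 among all genes in the TREM2+ libraries, against places 8 to 11 in the TREM2- libraries. Its share of a library's TPM was 2.43% ± 0.57 in the TREM2+ libraries, against 1.04% ± 0.27 in the TREM2- libraries (SD, n = 3 each). The log2 fold change was 1.24 ± 0.31, with adjusted p = 0.0899 in limma.

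Cd74 and the classical chains kept a near-constant proportion. Cd74 had 2.13, 1.96 and 2.11 TPM per TPM of the 3 summed classical chains in the TREM2+ libraries, against 2.12, 2.01 and 2.08 in the TREM2- libraries. These values overlapped, and their group means of 2.07 and 2.07 differed by less than the spread within either group. As shares of a library's TPM, the 10 members summed to 2.94%, 4.77% and 3.54% in the TREM2+ libraries, against 1.85%, 1.15% and 1.87% in the TREM2- libraries.

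The H2-DM genes did not share a direction. H2-DMa, the alpha chain (ENSMUSG00000037649.10, chromosome 17, 34119541 to 34139101), had 302, 412 and 291 TPM in the TREM2+ libraries, against 269, 224 and 231 TPM in the TREM2- libraries. The groups were separate but near each other, and the log2 fold change was 0.46 ± 0.22 (adjusted p = 0.468 in limma), or 0.30 without TREM2+ replicate 2. H2-DMb1, a beta chain (ENSMUSG00000079547.4, chromosome 17, 34153072 to 34160230), had 651, 1036 and 738 TPM in the TREM2+ libraries, against 516, 332 and 442 TPM in the TREM2- libraries. Its log2 fold change was 0.90 ± 0.27, with adjusted p = 0.156 in limma.

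H2-DMb2, the other beta chain (ENSMUSG00000037548.15, chromosome 17, 34143307 to 34151555), had 101, 129 and 82.9 TPM in the TREM2+ libraries, against 150, 132 and 143 TPM in the TREM2- libraries. All 3 TREM2+ libraries were below the TREM2- libraries, the nearest by a small margin, and the log2 fold change was -0.46 ± 0.23 (adjusted p = 0.472 in limma). Within each library, H2-DMb2 made up 13.5%, 11.1% and 10.1% of the summed beta chains in the TREM2+ libraries, against 22.5%, 28.5% and 24.5% in the TREM2- libraries. This share does not depend on how libraries are scaled. With H2-DMb1 higher and H2-DMb2 lower in every TREM2+ library, the share could not overlap between the groups. It averaged 11.5% ± 1.73 in the TREM2+ libraries, against 25.2% ± 3.03 in the TREM2- libraries (SD, n = 3 each), a gap larger than the spread within either group. An exact permutation test of 3 against 3 libraries cannot go below 0.1, and the share was chosen after the values were seen, so no p is given.

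The beta chain genes are neighbours and near copies, with 94.6% identical bases over the 1219 aligned bases of their longest transcripts. Of the stretches of 50 bases in H2-DMb2 transcripts, 21.2% also occurred in H2-DMb1 transcripts. The same held for 10.3% of the stretches of 100 bases and 4.14% of those of 150 bases. Reads from such stretches cannot be assigned to either gene, so both values are uncertain to an extent that depends on the read length. Recovered reads of H2-DMb2 numbered 1363, 1603 and 930 in the TREM2+ libraries, against 2332, 1719 and 1612 in the TREM2- libraries. Those of H2-DMb1 numbered 8433, 12414 and 7967 in the TREM2+ libraries, against 7727, 4158 and 4780 in the TREM2- libraries.

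H2-Oa, the alpha chain of H2-O (ENSMUSG00000024334.9, chromosome 17, 34092340 to 34095234), had 27.2, 31.9 and 18.5 TPM in the TREM2+ libraries, against 56.9, 33.8 and 47.1 TPM in the TREM2- libraries. It lay lower in all 3 TREM2+ libraries, with 295, 320 and 167 recovered reads there and 714, 355 and 426 in the TREM2- libraries. Its log2 fold change of -0.81 ± 0.28 equals 0.571-fold, with adjusted p = 0.245 in limma. H2-Ob, the beta chain (ENSMUSG00000041538.16, chromosome 17, 34238903 to 34254414), had 5.81, 7.25 and 6.05 TPM in the TREM2+ libraries, against 17.5, 6.23 and 8.90 TPM in the TREM2- libraries. TREM2- replicate 1 stood far above the other 5 libraries. The log2 fold change was -0.58 ± 0.34 (adjusted p = 0.568 in limma), but -0.20 without TREM2- replicate 1 and -0.88 without TREM2- replicate 2.

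Ratios of H2-DM to H2-O transcripts depended on the chain. There were 11.1, 12.9 and 15.7 TPM of H2-DMa per TPM of H2-Oa in the TREM2+ libraries, against 4.73, 6.61 and 4.91 in the TREM2- libraries. The means were 13.2 ± 2.32 in the TREM2+ libraries, against 5.42 ± 1.04 in the TREM2- libraries (SD, n = 3 each). For the beta chains, H2-DMb1 had 112, 143 and 122 TPM per TPM of H2-Ob in the TREM2+ libraries, against 29.5, 53.2 and 49.7 in the TREM2- libraries. Neither of these ratios overlapped between the groups. For H2-DMa per H2-Oa this was fixed in advance, since H2-DMa lay higher and H2-Oa lower in every TREM2+ library. H2-DMb2 had 17.4, 17.8 and 13.7 TPM per TPM of H2-Ob in the TREM2+ libraries, against 8.56, 21.2 and 16.1 in the TREM2- libraries, which overlapped. The ratios were chosen after the values were seen and carry no test. These are transcripts, and protein was not measured here.

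**Figure D2:**
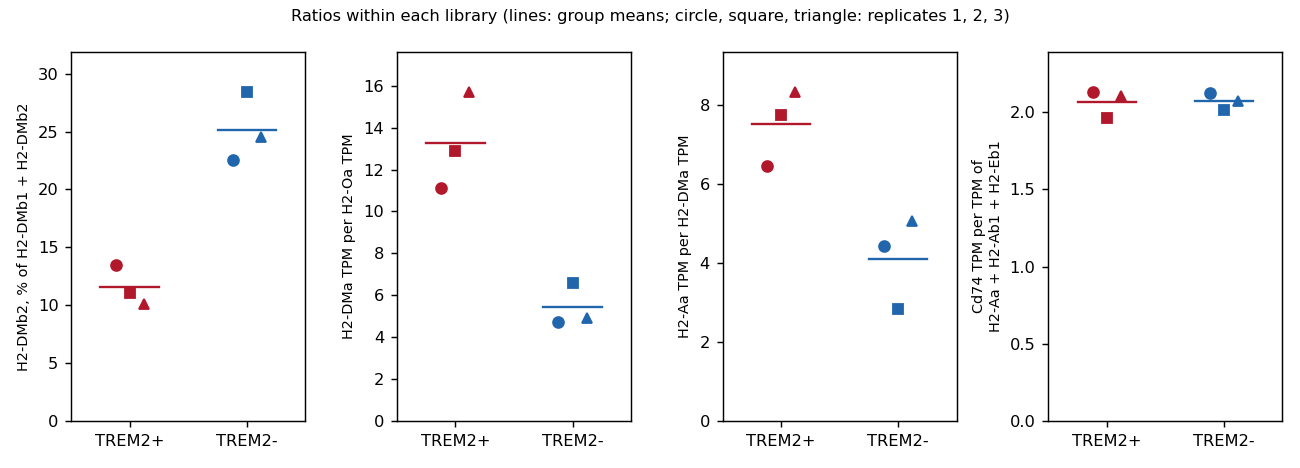
Ratios of TPM within each library in the TREM2+ (red, left) and TREM2- (blue, right) libraries; circles, squares and triangles are replicates 1, 2 and 3 and lines are group means. The H2-DMb2 share is 11.5% in the TREM2+ libraries, against 25.2% in the TREM2- libraries on average, H2-DMa per H2-Oa and H2-Aa per H2-DMa are higher in every TREM2+ library, and Cd74 per classical chain overlaps near 2.07.

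The classical chains were set against the H2-DM genes in the same way, after the values were seen. H2-Aa had 6.46, 7.75 and 8.35 TPM per TPM of H2-DMa in the TREM2+ libraries, against 4.43, 2.84 and 5.07 in the TREM2- libraries, without overlap. Of the 9 ratios of a classical chain to an H2-DM gene, 8 were higher in every TREM2+ library. These ratios share genes and the classical chains moved together, so they are not separate observations. The ratios to H2-DMb2 could not overlap, since each classical chain lay higher and H2-DMb2 lower in every TREM2+ library. The exception was H2-Ab1 per H2-DMb1, with 7.59, 8.49 and 8.14 in the TREM2+ libraries, against 6.11, 6.86 and 7.64 in the TREM2- libraries.

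Ciita, the transactivator (ENSMUSG00000022504.10, chromosome 16, 10480059 to 10528418), had 10.6, 15.8 and 12.1 TPM in the TREM2+ libraries, against 17.3, 5.68 and 10.8 TPM in the TREM2- libraries. The highest and the lowest values were both in TREM2- libraries. The log2 fold change of 0.27 ± 0.36 had adjusted p = 0.85 in limma. Leaving out TREM2- replicate 1 gave 0.62, leaving out TREM2- replicate 2 gave -0.11 and leaving out TREM2+ replicate 2 gave 0.12, so no direction can be given. Ciita is transcribed from several promoters in different cell types, which values per gene do not separate.

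The members shared their highest TREM2+ and their lowest TREM2- library, while the order of replicates 1 and 3 varied among them. TREM2+ replicate 2 was the highest TREM2+ library for 10 of 10 members, as it was for 47.1% of all genes tested. TREM2- replicate 2 was the lowest TREM2- library for 10 of 10 members, as it was for 30.9% of all genes. Both held at once for 16.5% of all genes. Members share libraries and regulators, so these counts are a description.

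**Figure D3:**
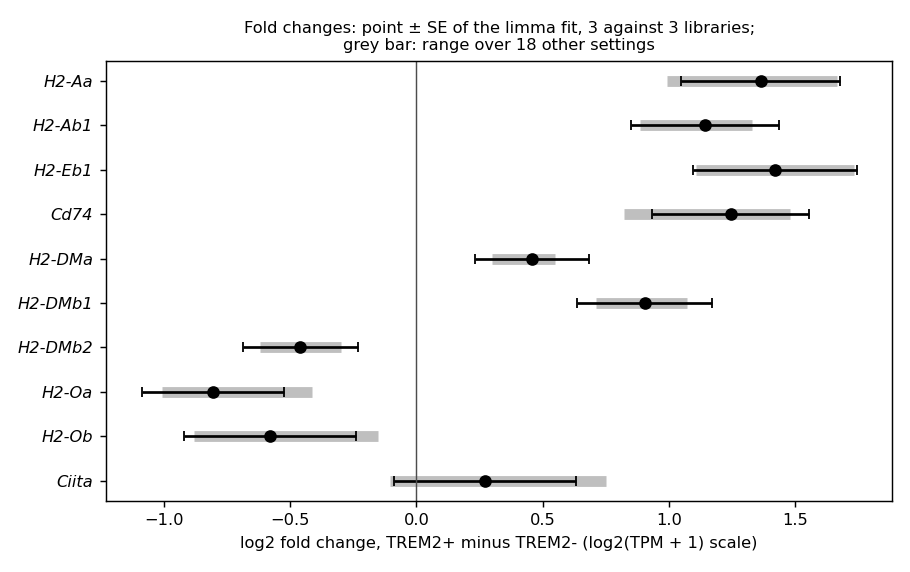
Log2 fold change of each gene, TREM2+ minus TREM2-, as points with the SE of the limma fit on 3 against 3 libraries, with grey bars for the range over 18 other settings. The bars of 9 genes stay on 1 side of 0, from H2-Eb1 at 1.42 to H2-Oa at -0.81, and that of Ciita spans 0.

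Across the 18 other settings of scaling, filtering, model and left-out libraries, 179 of 180 values kept the direction, and the exception was Ciita. The changed filters, the replicate block and the fit without a mean-variance trend could not change a fold change. All settings draw on the same libraries, so this count is a description and not a measure of stability. With library weights the log2 fold change was -0.41 for H2-Oa, -0.15 for H2-Ob and 0.75 for Ciita, and without both libraries numbered 3 it was -0.30 for H2-DMb2. Some calls did appear. H2-Aa and H2-Eb1 passed as higher when only genes of at least 5 TPM were tested, where 3.72% of 8154 genes did. H2-Aa, H2-Ab1, H2-Eb1, Cd74 and H2-DMb1 passed as higher with voom on recovered reads, where 4.37% of 13331 genes did, and with library weights, where 7.08% of 13788 genes did. Adjusted p-values in limma over these 18 settings lay between 0.00994 and 0.362 for H2-Aa, between 0.0231 and 0.514 for H2-Ab1, between 0.00967 and 0.357 for H2-Eb1, between 0.015 and 0.661 for Cd74 and between 0.0218 and 0.562 for H2-DMb1.

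Several members overlap other annotated genes: H2-DMa overlaps Brd2 and Ciita overlaps Dexi on the opposite strand, H2-Oa overlaps the antisense gene BC051537, H2-Eb1 the antisense gene Gm20513, and Cd74 holds Mir5107. The sources used here do not give the strand setting of the counting, so reads of the overlapping parts cannot be told apart.

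The processing enzymes upstream of peptide loading included genes that passed. Of 10 antigen and invariant chain processing genes, 4 rose, 0 fell and 6 did not pass, with a median log2 fold change of 0.60. The list also holds Cst3, an inhibitor of cathepsins and not an enzyme. Cst3 lay lower in every TREM2+ library and did not pass (log2 fold change -0.47 ± 0.26, adjusted p = 0.533 in limma). Lgmn, the asparaginyl endopeptidase that opens antigens and the invariant chain, had 1630, 1931 and 1105 TPM in the TREM2+ libraries, against 311, 500 and 536 TPM in the TREM2- libraries (log2 fold change 1.79 ± 0.30). Ctsl, Ctsb and Ctsd, cysteine and aspartic cathepsins, had log2 fold changes of 1.80 ± 0.37, 1.33 ± 0.21 and 1.29 ± 0.23. Adjusted p-values of the 4 genes in limma lay between 0.0152 and 0.0407.

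Ctss, the cathepsin that makes the last cut in the invariant chain, did not pass. It had 9464, 11501 and 8523 TPM in the TREM2+ libraries, against 5397, 6481 and 6225 TPM in the TREM2- libraries, with a log2 fold change of 0.70 ± 0.24 and adjusted p = 0.245 in limma. None of the 4 calls held in every fit that left out 1 library: Ctsb kept it in 4 of 6, Ctsd in 3, Lgmn in 2 and Ctsl in 1. Of the list, 0 genes passed without TREM2+ replicate 1 or without TREM2- replicate 3, and 2 passed without TREM2+ replicate 2, TREM2+ replicate 3 or TREM2- replicate 1. It had 0 calls with no filter, and 2 with quantile normalization, without the repeat family or without rescaling.

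The factors around CIITA showed no call. Of 9 class II promoter factors (the RFX subunits Rfx5, Rfxank and Rfxap, the NF-Y subunits, Creb1 and coactivators), 0 passed in limma and the median log2 fold change was -0.17. Of 9 genes of the interferon-gamma input, 0 passed and the median was 0.06. Ifngr1, the ligand-binding receptor chain, had 438, 703 and 333 TPM in the TREM2+ libraries, against 912, 835 and 687 TPM in the TREM2- libraries (log2 fold change -0.78 ± 0.30, adjusted p = 0.293 in limma). Ifng itself had 28.4, 14.3 and 26.3 TPM in the TREM2+ libraries, against 56.6, 38.1 and 24.8 TPM in the TREM2- libraries, which overlapped.

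The class II genes of chromosome 17 have other genes between and beside them, some of the class I pathway. Of 6 listed neighbours (the immunoproteasome genes Psmb8 and Psmb9, the peptide transporter genes Tap1 and Tap2, Brd2 and Btnl2), 0 passed in limma and the median log2 fold change was 0.04. Psmb8 had 467, 355 and 408 TPM in the TREM2+ libraries, against 500, 433 and 290 TPM in the TREM2- libraries.

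At the surface, 0 of 3 turnover genes passed, and Marchf1, the ubiquitin ligase that removes class II molecules, had a log2 fold change of -0.35 ± 0.25. Of 8 genes listed under costimulation, 2 rose and 0 fell, with a median of 0.56. Both that rose encode ligands of the inhibitory receptor PD-1, and 0 of the 6 others passed in limma. Cd274 had a log2 fold change of 1.70 ± 0.34 (adjusted p = 0.0359 in limma) and Pdcd1lg2 of 1.38 ± 0.26 (adjusted p = 0.0309 in limma). Of these calls, Cd274 kept it in 2 of 6 fits that left out 1 library, those without TREM2+ replicate 2 and without TREM2- replicate 2, and Pdcd1lg2 in 0. The list had 0 calls with no filter and without the repeat family, and 1 with quantile normalization or without rescaling. The T cell costimulator Cd86 had 145, 139 and 128 TPM in the TREM2+ libraries, against 69.0, 97.2 and 62.9 TPM in the TREM2- libraries, with a log2 fold change of 0.86 ± 0.23 and adjusted p = 0.113 in limma.

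The genes whose level over the 6 libraries was most like the mean log2 level of H2-Aa, H2-Ab1, H2-Eb1 and Cd74 were Zmynd15 (Pearson r = 0.989), Tlr12 (r = 0.986), Cd72 (r = 0.985), Pla2g15 (r = 0.982) and Cd300c2 (r = 0.979). They lead a ranking of 8099 genes with a mean of at least 5 TPM, and share the libraries and the group difference with the members. Zmynd15 had 14.8, 22.2 and 14.4 TPM in the TREM2+ libraries, against 5.62, 2.19 and 5.85 TPM in the TREM2- libraries.

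Other cells that make class II molecules or differ between the groups were read from marker lists. The marker genes named for a call here were chosen after their values were seen. Macrophage markers were high in all libraries: they summed to 34649 to 45278 TPM in the TREM2+ libraries, against 58696 to 75794 TPM in the TREM2- libraries, mostly Lyz2. Cd68, a macrophage lysosomal protein, had 2081, 2024 and 1635 TPM in the TREM2+ libraries, against 1383, 1609 and 1169 TPM in the TREM2- libraries. B cell markers, 10 in all, summed to 377, 437 and 379 TPM in the TREM2+ libraries, against 1118, 255 and 557 TPM in the TREM2- libraries, mostly Ighm, and 0 of 7 tested passed. The 10 conventional dendritic cell markers summed to 82.2, 99.2 and 79.3 TPM in the TREM2+ libraries, against 228, 76.0 and 92.4 TPM in the TREM2- libraries. Of that 228 TPM, Cd209a gave 154. Of the list 1 rose, Cd207 (2.63 ± 0.33 on the log2 scale), and 0 fell, with a median log2 fold change of -0.68. Flt3, Xcr1, Itgae and Snx22 lay lower in every TREM2+ library and did not pass; Flt3 had 3.49, 10.8 and 1.19 TPM in the TREM2+ libraries, against 11.6, 19.6 and 14.9 TPM in the TREM2- libraries. TREM2- replicate 1, where H2-Ob, H2-Oa and Ciita were highest, was also highest in the sums of B cell, conventional and plasmacytoid dendritic cell, T cell and hepatocyte markers.

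The 7 markers of mature dendritic cells summed to 150, 88.0 and 46.7 TPM in the TREM2+ libraries, against 153, 221 and 137 TPM in the TREM2- libraries. Of these, 1 fell, the homing receptor Ccr7 (-1.19 ± 0.24 on the log2 scale), whose call was lost in each of the 6 fits that left out 1 library. The 7 plasmacytoid dendritic cell markers summed to 271 to 335 TPM in the TREM2+ libraries, against 161 to 459 TPM in the TREM2- libraries. The part of B cells and dendritic cells in the values of H2-O, H2-DMb2 and Ciita was not tested.

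Kupffer cell markers rose in 7 of 8 genes, with sums of 1064 to 2100.3 TPM in the TREM2+ libraries, against 166 to 282 TPM in the TREM2- libraries. Endothelial markers, of cells that in the liver also carry class II molecules, rose in 9 of 10 genes, with sums of 262 to 372 TPM in the TREM2+ libraries, against 21.5 to 42.5 TPM in the TREM2- libraries. Without TREM2- replicate 3 the endothelial count was 6 and the Kupffer cell count 5, and without TREM2- replicate 1 the Kupffer cell count was also 5. Without both libraries numbered 3 both counts were 0, but there 0 of all 13788 genes passed. Monocyte markers, mostly Chil3, ranged from 3334 to 29659 TPM in the TREM2+ libraries, against from 12340 to 73305 TPM in the TREM2- libraries, with the top in TREM2- replicate 2, where Chil3 alone had 69640 TPM and all 10 members were lowest in that group. Ly6c2, Ccr2 and Plac8 were instead highest in TREM2- replicate 1, and 1 of 7 monocyte markers fell (Ly6c2). T cell markers summed to 458 to 511 TPM in the TREM2+ libraries, against 538 to 1627 TPM in the TREM2- libraries, and 0 of 9 passed. Neutrophil markers summed to 16208 to 20352 TPM in the TREM2+ libraries, against 20348 to 23477 TPM in the TREM2- libraries, and 1 of 8 fell (Camp). The Camp call was kept in 2 of 6 fits that left out 1 library. The list had no common direction: Camp and Ngp lay lower in every TREM2+ library, while Cxcr2 and S100a9 lay higher in every one and did not pass. Hepatocyte markers summed to 121 to 360.04 TPM in the TREM2+ libraries, against 70.1 to 493 TPM in the TREM2- libraries. No marker of any of these lists was at 0 in all libraries. Their part in the difference of the classical chains and Cd74 was not tested.

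**Figure D4:**
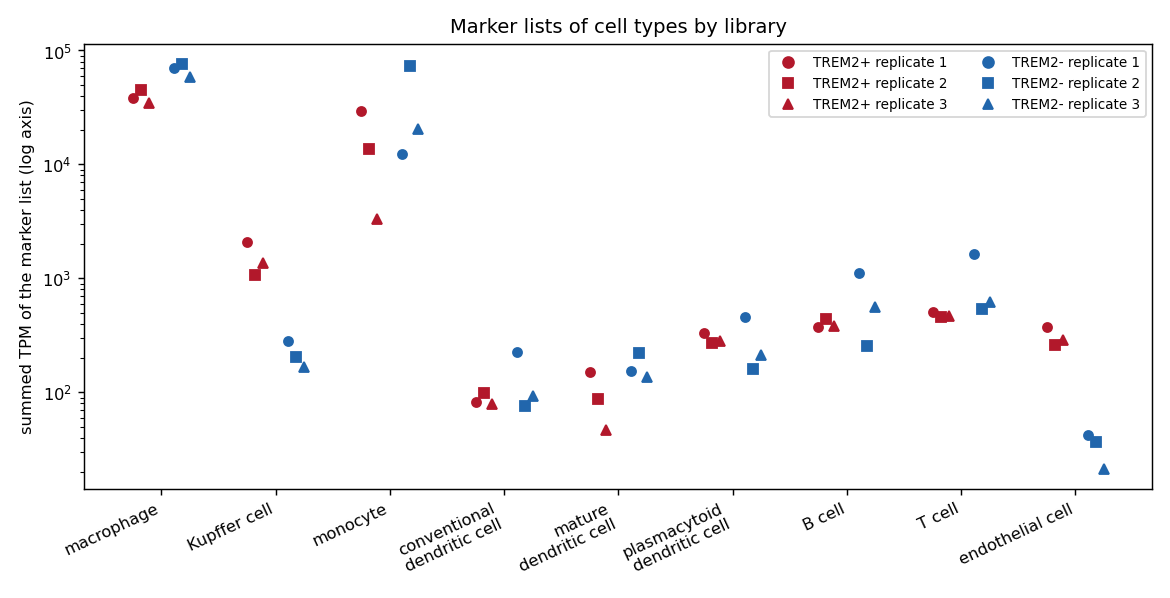
Summed TPM (log axis) of marker lists of 9 cell types in the TREM2+ (red, left) and TREM2- (blue, right) libraries, with circles, squares and triangles for replicates 1, 2 and 3. Kupffer cell and endothelial sums are higher in all 3 TREM2+ libraries, and B cell and conventional dendritic cell sums are highest in TREM2- replicate 1, at 1118 and 228 TPM.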

How the data were processed

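RNA of 3 TREM2+ and 3 TREM2- libraries was aligned and counted against mm10 with STAR 2.7.10a, Subread and featureCounts 2.0.3, per the submitters' processing notes; for annotation release, strand setting and formula, nothing was found in the sources used here. The authors deposited a length-scaled signal named TPM whose 6 columns together sum to 1000000. The planned test assumed TPM; each library was therefore first rescaled to 1000000. Reads were recovered as signal times exon length in GENCODE M21: of 36671 rows above 0 that matched 1 gene, 98.7% were whole within 0.01 read in all libraries. They lack molecular identifiers.

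limma 3.58.1 in R 4.3.3 was used with a mean-variance trend, two-sided, without a replicate block, on log2(TPM + 1), which understates changes of low genes. The procedure was tested on simulated counts with a fixed spread, in which unchanged genes differed between libraries only by depth and random spread. That test does not show how the procedure performs on libraries that differ as these do. Errors after TPM are SDs.

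Members, lists, markers and settings were chosen with earlier results of these data known. Named genes are the members, Trem2, called genes of each list and otherwise up to 4 with the smallest p, up to 3 abundant markers, and the 5 genes most like the classical chains; only part of these is printed. Ratios were added later. Alternatives covered pseudocount, filter, scaling, model, weights and left-out libraries. Same-numbered libraries were checked for pairing, which the check did not settle, and the main fit did not treat them as pairs.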

Additional observations from a re-analysis of the deposited data

How the results depend on the processing

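No member passed as higher or lower in limma, and this held in 15 of 18 other settings: 2 members passed as higher at a minimum of 5 TPM (3.72% of 8154 genes did), 5 with voom on recovered reads (4.37% of 13331) and 5 with library weights (7.08% of 13788), and 0 passed as lower in any. Leaving out 1 library moved Ciita between -0.11 (without TREM2- replicate 2, a reversal) and 0.619 (without TREM2- replicate 1), and the cause was not tested. Over all genes, 282 passed as higher and 51 as lower. Genes passing as higher numbered 95 with no filter, 582 with voom, 976 with library weights and 0 without both libraries numbered 3 (762 and 583 genes were higher and lower there at unadjusted p-values under 0.05). Genes passing as lower numbered 31 with a pseudocount of 0.1, 3 with no filter, 80 with median-of-ratios scaling, 121 with quantile normalization, 101 without the repeat family, 92 without rescaling, 128 with voom, 389 with library weights and 0 without both libraries numbered 3. Leaving out 1 library gave 109 to 310 higher and 12 to 94 lower, and 0 members in each direction.

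With the replicate number as a block, 116 genes were higher and 10 lower, and 0 members passed. The processing list then had 2 calls and the costimulation list 0. Deviations of same-numbered libraries correlated at 0.188, -0.03 and 0.224 for numbers 1, 2 and 3. TREM2+ replicates 1 and 3 correlated best with their own number, and TREM2+ replicate 2 with TREM2- replicate 3 (0.131). With 3 libraries per group, this does not decide whether the numbers are pairs. The labels do not state a pairing, so the main fit has no block. edgeR's test on recovered reads was not run. Counting error was small for abundant members; among the members, H2-Oa and H2-Ob had the fewest reads.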

Other observations

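Further ratios within libraries, looked at after the values were seen and not tested, bear on the same genes. H2-Aa had 185, 202 and 200.2 TPM per TPM of Ciita in the TREM2+ libraries, against 69.0, 112 and 108 in the TREM2- libraries, without overlap. H2-Eb1 had 1.08, 1.13 and 1.06 TPM per TPM of H2-Aa in the TREM2+ libraries, against 1.05, 1.04 and 1.05 in the TREM2- libraries. These values did not overlap but lay in a narrow range over all 6. H2-Oa had 4.68, 4.4 and 3.06 TPM per TPM of H2-Ob in the TREM2+ libraries, against 3.25, 5.43 and 5.29 in the TREM2- libraries, which overlapped.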
